A study of Mus musculus with 12 samples.

Results

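Expression of 8 genes of the TGF-beta pathway was described in EGFR+ cells sorted from mouse glioblastomas. The 8 genes were taken by symbol from a table of 18180 genes: the ligands Tgfb1, Tgfb2 and Tgfb3, the receptors Tgfbr1 and Tgfbr2, and the target genes Tgfbi, Smad7 and Skil. All 8 had a row in the table. The tumors had been started in mice with conditional human EGFR overexpression and Cdkn2a-/-, by intracranial injection of a lentivirus carrying TGFa and iCre, and the mice were of a mixed background (C57Bl/6J, 129S4, FVBN/J and Balb/cJ in the labels, with SJL added in the methods). All groups shared this model, and there was no untreated or normal brain group. Cells from 3 end-stage tumors (T3, T4 and T5) were stained for EGFR with either PDGFRA or Galectin-1 (GAL1), and 4 populations were collected per tumor: PDGFRA+, PDGFRA-, GAL1+ and GAL1-. PDGFRA marks progenitor-like tumor cells, and GAL1 is a galectin raised in mesenchymal-like tumor cells. The PDGFRA and GAL1 stains were separate sorts of the same tumor, so a cell type can be present in a population of each sort. Each population had 1 library per tumor (n = 3, 12 libraries), so the replicate is the tumor. In such bulk libraries, fewer cells of a type and less RNA per cell cannot be told apart.

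TGF-beta ligands are secreted in a latent complex and act only after they are released from it, by integrins, thrombospondin or proteases. The active ligand binds TGFBR2, which recruits and phosphorylates TGFBR1, and TGFBR1 phosphorylates SMAD2 and SMAD3, which enter the nucleus with SMAD4. Smad7 and Skil are targets that feed back on the signal: SMAD7 blocks the receptor and SKIL (SnoN) represses SMAD-driven transcription. Tgfbi encodes a secreted matrix protein named for its induction by TGF-beta. In the brain, microglia and macrophages are a major source of TGF-beta1, and microglia depend on the pathway for their identity.

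The promoters of Tgfb1, Tgfb2 and Tgfbi are printed because these genes gave the contrasting patterns below: Tgfb1 and Tgfbi were highest in GAL1+ cells and Tgfb2 was not. Each sequence is the 250 bases before the RefSeq start site on the gene's strand, 5′ to 3′, in GRCm38.p6 coordinates. Windows were found for 5 of the 8 genes, in a search of the promoter table that left out a chromosome. A gene without a window here may therefore still have one in that table. Capitals mark TATAAA on the given strand and the SMAD-binding letters CAGAC on either strand, where the reverse complement reads GTCTG. The Tgfb1 window is chr7:25686752-25687001 (+), the Tgfb2 window chr1:186705990-186706239 (-) and the Tgfbi window chr13:56609336-56609585 (+).
Tgfb1: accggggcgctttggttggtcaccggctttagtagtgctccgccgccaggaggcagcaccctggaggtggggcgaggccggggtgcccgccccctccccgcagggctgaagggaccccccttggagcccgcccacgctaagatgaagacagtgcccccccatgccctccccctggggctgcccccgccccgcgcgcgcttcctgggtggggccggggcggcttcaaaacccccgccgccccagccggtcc
Tgfb2: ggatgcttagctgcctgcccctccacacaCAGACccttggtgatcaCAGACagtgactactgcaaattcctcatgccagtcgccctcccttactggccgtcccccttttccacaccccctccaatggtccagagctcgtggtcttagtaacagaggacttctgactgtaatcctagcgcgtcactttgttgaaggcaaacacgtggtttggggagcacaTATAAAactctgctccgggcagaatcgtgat
Tgfbi: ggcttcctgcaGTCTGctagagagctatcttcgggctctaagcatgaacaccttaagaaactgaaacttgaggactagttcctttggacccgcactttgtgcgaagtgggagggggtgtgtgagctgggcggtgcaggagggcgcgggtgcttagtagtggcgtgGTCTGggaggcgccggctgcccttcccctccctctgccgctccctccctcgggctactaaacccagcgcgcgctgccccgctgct
The Tgfb1 window was GC-rich, with 75.2% G and C and 21 CpG, and held neither motif. The Tgfb2 window had 53.6% G and C and 8 CpG, with TATAAA starting 31 bases before the start and 2 CAGAC that did not overlap it. The Tgfbi window had 62.4% G and C, 15 CpG, 2 CAGAC on the reverse strand and no TATAAA. Among 32851 RefSeq promoter windows of the same length, 7.59% held TATAAA and 42.2% held CAGAC, with a median G and C content of 52.4% and a median of 6 CpG. These matches describe the letters in the windows only.

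Libraries held 9851175 to 24117541 reads, as recovered from the deposited values. The GAL1- libraries were the deepest, with 21728280 to 24117541 reads, and no library of the other populations held more than 18522549. The sorted genes followed the GAL1 sort. In limma, Lgals1, which encodes Galectin-1, was 1.29 higher (log2) in GAL1+ than GAL1- cells (adjusted p = 0.000967), and Pdgfra was 2.97 lower (adjusted p = 0.000258). Pdgfra was 1.60 higher in PDGFRA+ than PDGFRA- cells in the estimate, higher in 3 of 3 tumors, but the difference was not called (adjusted p = 0.249). Between PDGFRA+ and GAL1- cells Pdgfra differed by −0.25 and was not called (adjusted p = 0.786). Pan-leukocyte markers differed between the populations. Their 12 genes summed to 3270 to 4690 CPM in GAL1+, 743 to 1780 in PDGFRA+, 811 to 3700 in PDGFRA- and 99.5 to 256 in GAL1- libraries, and none was at the floor in any population. Oligodendrocyte progenitor markers went the other way, from 664 to 2040 CPM in GAL1+ to 5560 to 6740 CPM in GAL1- libraries. The PDGFRA- library of T5 stood apart from the other PDGFRA- libraries, with the highest leukocyte sum of that group (3700 CPM) and the lowest progenitor sum (1510 CPM), so results that rest on it are given with and without it. The sorted cells are called CD45- in the study's account of its results, but the sort protocol names EGFR and PDGFRA or Galectin-1 only. Ptprc, which encodes CD45, was at 4.60 ± 0.79 log2 CPM (SD, n = 3) in GAL1- and 8.65 ± 0.40 log2 CPM in GAL1+ cells.

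Values below are log2 CPM, and those of 3 libraries are given in the order T3, T4 and T5. Differences are log2 fold changes from a limma fit over all 12 libraries with the tumor as a block, with the standard error (SE) of the estimate. A gene was called at an adjusted p under 0.05, with p-values adjusted over all 18180 genes.

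The GAL1 sort gave the largest differences. In GAL1+ relative to GAL1- cells, 7 of the 8 genes were called higher, by 1.64 to 4.88 on the log2 scale, and Tgfb2 was called lower. The median of the 8 differences was 2.87, against −0.03 over all genes. Calls were common in this comparison, with 28.9% of the whole table higher and 29.3% lower in GAL1+ cells. The 7 genes were also higher in every GAL1+ library than in every GAL1- library, as 30.1% of all genes were.

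Tgfb1, the main ligand of myeloid cells, stood at 7.37, 7.68 and 7.61 in GAL1+ and at 2.33, 4.02 and 3.82 in GAL1- cells. PDGFRA+ cells had 5.47, 6.63 and 6.43, and PDGFRA- cells had 6.00, 5.63 and 7.38. All GAL1- libraries lay below all other libraries, and T5 of PDGFRA- reached the GAL1+ range. The GAL1+ over GAL1- difference was 4.17 (SE 0.39, adjusted p = 4.85e-05), which is 17.9-fold. From high to low, the group means ran GAL1+, PDGFRA-, PDGFRA+ and GAL1-. Of the neighbours in that order, the step from PDGFRA+ to GAL1- was called (2.78, adjusted p = 0.00281). The step from GAL1+ to PDGFRA- was not called (PDGFRA- minus GAL1+ −1.22, adjusted p = 0.0546, lower in 3 of 3 tumors), but was called without the PDGFRA- library of T5 (−1.62, adjusted p = 0.0142).

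Tgfb2, the ligand whose binding to TGFBR2 needs the co-receptor betaglycan, followed another pattern. It was at 4.30, 4.20 and 3.59 in GAL1+ and at 4.35, 5.17 and 4.84 in GAL1- cells. PDGFRA+ cells had 4.65, 4.92 and 4.65, and PDGFRA- cells had 4.33, 5.24 and 3.58. The highest GAL1+ and the lowest GAL1- library were both of T3 and nearly level. The GAL1+ over GAL1- difference was −0.76 (SE 0.28, adjusted p = 0.044), and it was not called without the tumor block (adjusted p = 0.119), without T4 (0.131) or without T5 (0.171). Its group means ran from 4.79 in GAL1- through 4.74 in PDGFRA+ and 4.38 in PDGFRA- to 4.03 in GAL1+ cells, with no called difference between neighbours. Of its exons, 124 bases overlapped an opposite-strand gene, and the strand setting of the counting was not given in the sources used here.

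Tgfb3 was at 5.52, 5.38 and 7.28 in GAL1+ and at 2.88, 2.94 and 3.58 in GAL1- cells. It was at 4.05, 4.42 and 5.94 in PDGFRA+ and at 4.65, 4.31 and 6.96 in PDGFRA- cells. Within every population T5 was highest, while GAL1- libraries lay below all others. The GAL1+ over GAL1- difference was 2.93 (SE 0.31, adjusted p = 7.26e-05). Its means were ordered as those of Tgfb1, and the PDGFRA+ over GAL1- step was called (1.67, adjusted p = 0.00898; without the block 0.39). PDGFRA- minus GAL1+ was −0.75 and not called (adjusted p = 0.113), and −1.11 without the PDGFRA- library of T5 (adjusted p = 0.0186). Opposite-strand genes overlapped 420 of its exon bases.

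**Figure D1:**
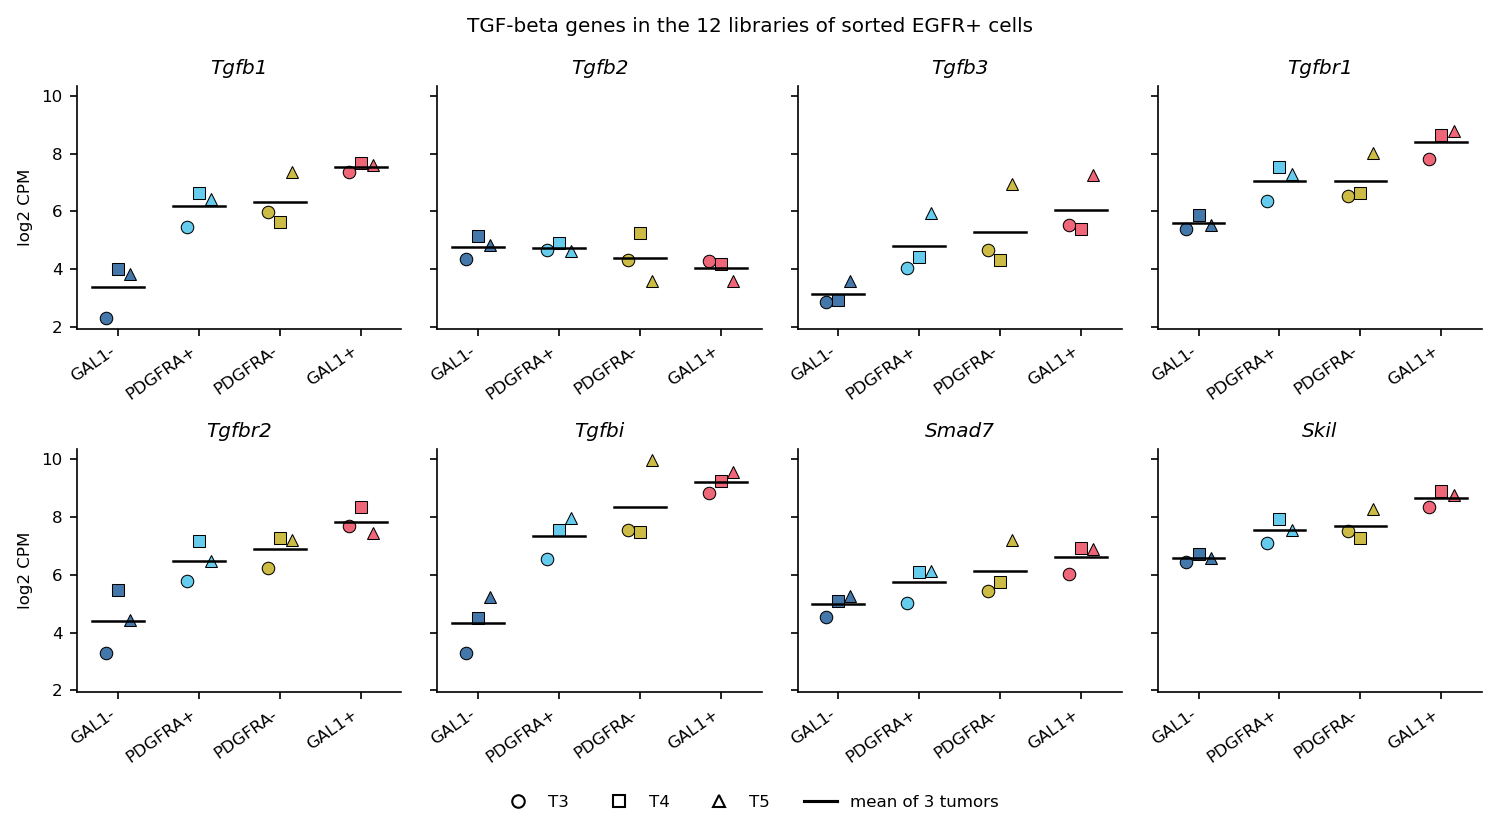
Level of each of the 8 genes (log2 CPM, y axis) in the 4 sorted populations (x axis), with 1 point per library, marker shape for the tumor and a line at the mean of 3 tumors. The GAL1- mean is the lowest for 7 genes, while Tgfb2 has its highest mean there (4.79) and its lowest in GAL1+ cells (4.03).

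Set side by side per kilobase of exon, the ligands made up different shares of their sum. Tgfb1 made up 81.4%, 85.6% and 65.0% of the summed ligand CPM per kb in GAL1+ libraries and 27.5%, 44.8% and 41.8% in GAL1- libraries. Tgfb2 made up 4.06%, 3.19% and 1.68% in GAL1+ and 46.6%, 41.6% and 35.5% in GAL1- libraries. In GAL1- cells Tgfb1 and Tgfb2 were thus near each other, while in GAL1+ cells Tgfb1 was 20.0 to 38.6 times Tgfb2 per kb. The shares of Tgfb2 in PDGFRA+ cells were 16.1%, 10.1% and 7.72%, between those of the GAL1 populations. In PDGFRA- cells they were 9.50%, 20.3% and 1.99%, and T5 sat within the GAL1+ range. The summed level of the 3 ligands was 93.4 to 138 CPM per kb in GAL1+ and 8.40 to 16.6 in GAL1- libraries. These shares are descriptions, with no test.

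**Figure D2:**
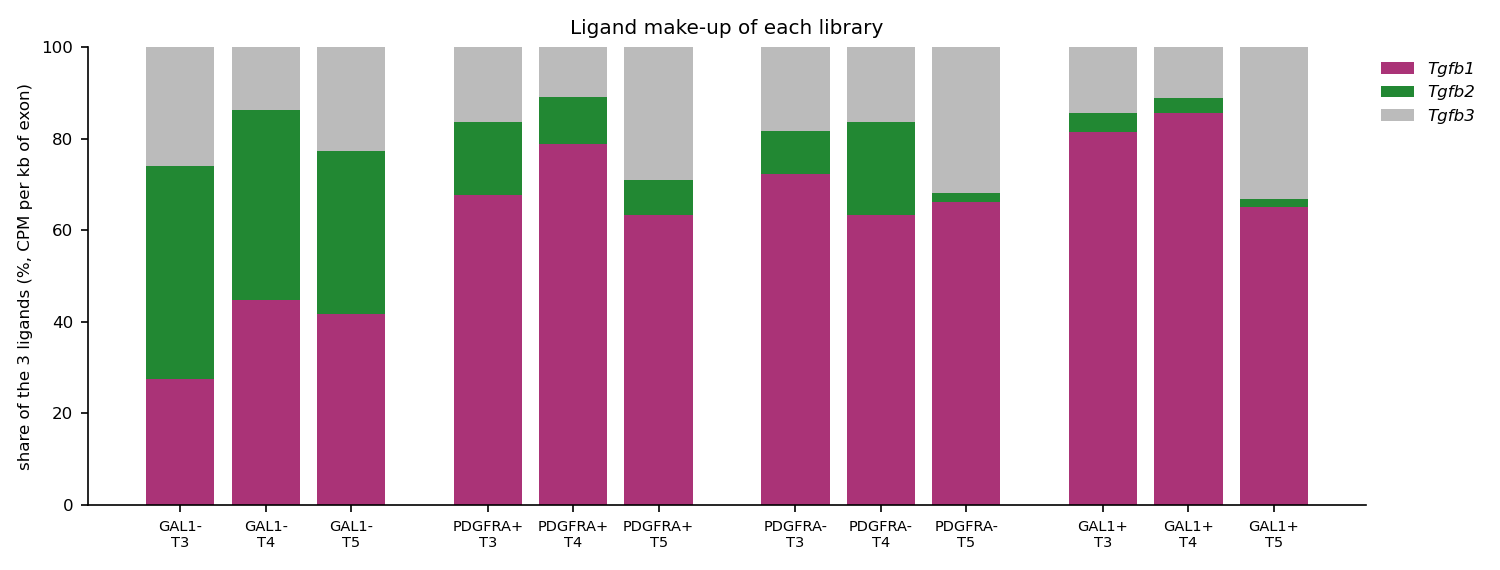
Share of Tgfb1, Tgfb2 and Tgfb3 in their summed CPM per kb of exon (y axis, %), with 1 bar per library grouped by population (x axis). Tgfb2 takes 35.5% to 46.6% of the GAL1- bars and 1.68% to 4.06% of the GAL1+ bars.

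Both receptors rose with GAL1. Tgfbr2, the ligand-binding receptor, was at 7.69, 8.36 and 7.46 in GAL1+ and at 3.29, 5.47 and 4.44 in GAL1- cells. It was at 5.80, 7.17 and 6.49 in PDGFRA+ and at 6.22, 7.29 and 7.19 in PDGFRA- cells. Every GAL1+ library was above every library of the other populations. The GAL1+ over GAL1- difference was 3.44 (SE 0.27, adjusted p = 3.93e-05). The means ran GAL1+, PDGFRA-, PDGFRA+ and GAL1-, and the first step (0.94, adjusted p = 0.0403; without the block 0.303) and the last (2.09, adjusted p = 0.00226; without the block 0.0595) were called.

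Tgfbr1, the signaling receptor, was at 7.82, 8.64 and 8.80 in GAL1+ and at 5.40, 5.88 and 5.53 in GAL1- cells. PDGFRA+ cells had 6.36, 7.55 and 7.30, and PDGFRA- cells had 6.55, 6.63 and 8.01. GAL1- libraries were again below all others, and T5 of PDGFRA- passed the lowest GAL1+ library. The GAL1+ over GAL1- difference was 2.82 (SE 0.30, adjusted p = 6.96e-05). The PDGFRA+ and PDGFRA- means were 7.07 and 7.06, and both neighbours of this pair differed from it, GAL1+ from PDGFRA+ (adjusted p = 0.00797; without the block 0.0501) and PDGFRA- from GAL1- (1.46, adjusted p = 0.00822; without the block 0.0607). Per kb of exon, Tgfbr1 was above Tgfbr2 in 11 of the 12 libraries, by up to 2.46 on the log2 scale in the GAL1- library of T3, and below it in the PDGFRA- library of T4.

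Of the targets, Tgfbi differed most. It was at 8.84, 9.26 and 9.56 in GAL1+ and at 3.28, 4.52 and 5.23 in GAL1- cells. PDGFRA+ cells had 6.54, 7.54 and 7.98, and PDGFRA- cells had 7.55, 7.49 and 9.96, where T5 was the highest of all 12 libraries. The GAL1+ over GAL1- difference of 4.88 (SE 0.37, adjusted p = 3.93e-05) is 29.4-fold and was the largest of the 8 genes. Its means ran as those of Tgfb1, and the step from PDGFRA+ to GAL1- was called (3.01, adjusted p = 0.00199). PDGFRA- minus GAL1+ was −0.89 and not called (adjusted p = 0.118), and −1.39 without the PDGFRA- library of T5 (adjusted p = 0.00896). Per kb of exon, Tgfbi had the highest mean of the 8 genes in GAL1+ (7.78), PDGFRA- (6.89) and PDGFRA+ cells (5.91), whereas in GAL1- cells Skil was highest (3.83), above Tgfbi (2.90). Tgfbi is also used as a marker of border-associated macrophages.

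The feedback genes moved less. Smad7 was at 6.02, 6.93 and 6.89 in GAL1+ and at 4.55, 5.11 and 5.27 in GAL1- cells, a difference of 1.64 (SE 0.26, adjusted p = 5.48e-04). Skil was at 8.34, 8.91 and 8.75 in GAL1+ and at 6.43, 6.73 and 6.59 in GAL1- cells, a difference of 2.08 (SE 0.23, adjusted p = 7.96e-05). Both were separated between these groups in every tumor, with differences of 1.48 to 1.83 for Smad7 and 1.91 to 2.18 for Skil. In the PDGFRA sort, Smad7 had 5.02, 6.10 and 6.14 in PDGFRA+ and 5.43, 5.74 and 7.22 in PDGFRA- cells. Skil had 7.11, 7.95 and 7.56 in PDGFRA+ and 7.51, 7.29 and 8.26 in PDGFRA- cells. For both genes the PDGFRA+ and PDGFRA- libraries overlapped. Their means ran GAL1+, PDGFRA-, PDGFRA+ and GAL1-, with no called step between neighbours for Smad7, although PDGFRA- was called lower than GAL1+ without the PDGFRA- library of T5 (−0.87, adjusted p = 0.00744). For Skil the steps from GAL1+ to PDGFRA- (adjusted p = 0.0204; without the block 0.07) and from PDGFRA+ to GAL1- (adjusted p = 0.0288; without the block 0.0977) were called.

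The direct comparison of the marker-positive populations asked how PDGFRA+ and GAL1+ cells differed. Of the 8 genes, 7 were called lower in PDGFRA+ than in GAL1+ cells, against 17% of all genes called lower and 20.9% called higher. The differences were −1.38 for Tgfb1 (adjusted p = 0.022), −1.26 for Tgfb3 (0.0131), −1.35 for Tgfbr1 (0.00797) and −1.35 for Tgfbr2 (0.00568). For the targets they were −1.87 for Tgfbi (adjusted p = 0.00548), −0.86 for Smad7 (0.0281) and −1.13 for Skil (0.00567). Tgfb2 was 0.71 higher in PDGFRA+ cells and was not called (SE 0.28, adjusted p = 0.0745), although it was higher in 3 of 3 tumors. The libraries of the groups did not overlap for 5 of the 7 lower genes, a pattern that 22.5% of all genes had, and overlapped for Tgfb3 and Smad7. Without the tumor block only Skil remained called, and the adjusted p was 0.0837 for Tgfb1, 0.239 for Tgfb3, 0.0501 for Tgfbr1, 0.0942 for Tgfbr2, 0.0752 for Tgfbi and 0.208 for Smad7. Without T3 only Tgfbr2 was called, and the 7 differences ran from −1.65 to −0.79. Pan-leukocyte markers moved with these genes: 12 of 12 were called lower in PDGFRA+ than in GAL1+ cells, with a median of −1.59, beside a median of −1.30 for the 8 genes. Their part in the result was not tested.

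PDGFRA+ and PDGFRA- cells did not differ in a called way for any of the 8 genes, nor for any of the 18180 genes tested (0%, limma, lowest adjusted p = 0.181). At an unadjusted p under 0.05, limma gave 2137 genes with the tumor block and 640 without it, where 0 were called as well. Tgfbi was the only one of the 8 genes at that level, with a difference of −0.98 in the limma fit (SE 0.37, adjusted p = 0.37). Its tumors did not share a direction, with −1.01 in T3, 0.05 in T4 and −1.98 in T5. The other differences ran from −0.50 for Tgfb3 to 0.36 for Tgfb2, and 6 of the 8 were negative. Without the PDGFRA- library of T5, the difference changed sign for Tgfb1 (0.24), Smad7 (0.0079) and Skil (0.12). An uncalled difference does not show that the levels were equal.

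**Figure D3:**
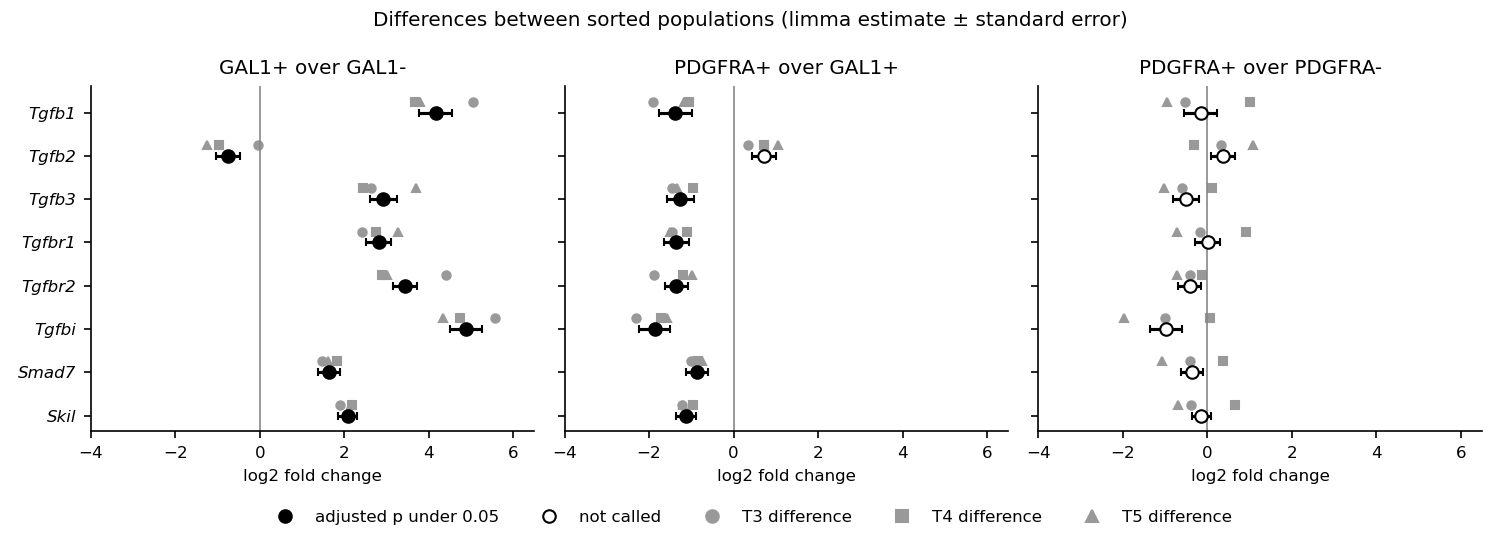
Log2 fold changes (x axis) of the 8 genes (y axis) in 3 comparisons, as limma estimates with standard errors (black; filled where called) and as the difference within each tumor (grey). All 8 genes are called in the GAL1 sort, 7 between PDGFRA+ and GAL1+ cells and 0 in the PDGFRA sort.

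Against the GAL1- cells, PDGFRA+ and PDGFRA- cells were each higher for most of the genes. PDGFRA+ cells were called higher for 6 of the 8, against 8.26% of all genes, from 0.96 for Skil (adjusted p = 0.0288) to 3.01 for Tgfbi (adjusted p = 0.00199). Smad7 was 0.78 higher and not called (adjusted p = 0.124), and Tgfb2 differed by −0.04 (adjusted p = 0.952). Without the block, 2 of the 6 calls were left, and the adjusted p was 0.39 for Tgfb3, 0.0984 for Tgfbr1, 0.0595 for Tgfbr2 and 0.0977 for Skil; without T3, 0 were called. PDGFRA- cells were called higher for 7 of the 8, against 16.2% of all genes, from 1.11 for Skil (adjusted p = 0.00863) to 3.99 for Tgfbi (adjusted p = 0.000652). Without the block 4 of those were called, and the adjusted p was 0.101 for Tgfb3, 0.0607 for Tgfbr1 and 0.161 for Smad7; 4 were also called without T3 and without T5. These comparisons share the GAL1- libraries. Pan-leukocyte markers were called higher in 12 of 12 cases in both, with medians of 2.85 for PDGFRA+ and 3.22 for PDGFRA-. Endothelial markers were called higher for 9 of 9 in both (medians 2.24 and 1.80), and mural and fibroblast markers for 4 and 5 of 9 (medians 1.89 and 2.09). The part of these markers was not tested.

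PDGFRA- cells were called lower than GAL1+ cells for 3 of the 8 genes, against 6.91% of all genes. These were Tgfbr1 (−1.36, adjusted p = 0.0172), Tgfbr2 (−0.94, adjusted p = 0.0403) and Skil (−0.98, adjusted p = 0.0204). Without the block none of them was called, at 0.0914, 0.303 and 0.07, and 0 of the 8 were called without T3 or without T4. Without the PDGFRA- library of T5, 7 of the 8 were called lower, all but Tgfb2. That library was above the T5 GAL1+ library for Tgfbi, by 0.40, and for Smad7, by 0.33. Of the pan-leukocyte markers, 12 were measured and 3 were called lower in PDGFRA- cells (median −1.30), as were 6 of 9 microglia markers (median −1.78) and 5 of 9 macrophage markers (median −1.53), while 6 of 8 oligodendrocyte progenitor markers were called higher (median 1.69). Over all 18180 genes, 3652 were called in either direction, 1257 of them lower. The part of these markers in the result was not tested.

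The effect of the GAL1 sort was tested against that of the PDGFRA sort in a single model. It differed for all 8 genes, where 51.1% of all genes were called. Each effect was the positive minus the negative population, and Pdgfra was lower in GAL1+ but higher in PDGFRA+ cells in the estimate. Effects of opposite sign in the 2 sorts therefore add in this difference. For Tgfb2 they were −0.76 (GAL1) and 0.36 (PDGFRA), so in both sorts its estimate was lower in the population with less Pdgfra. A test with the sorts matched by Pdgfra was not run. The GAL1 effect minus the PDGFRA effect was 5.86 for Tgfbi (SE 0.53, adjusted p = 0.000261), 4.33 for Tgfb1 (SE 0.55, adjusted p = 0.000365) and −1.11 for Tgfb2 (SE 0.40, adjusted p = 0.0421). For Tgfb2 the call held in 6 of 11 alternatives, with values from −1.49 to −0.51. Its adjusted p was 0.119 without the block, 0.0595 without the trend, 0.0658 without T3, 0.346 without T5 and 0.0921 without the PDGFRA- library of T5.

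The 7 genes that were higher in GAL1+ cells also followed the leukocyte markers across libraries. Pearson's r with the mean level of the 12 pan-leukocyte markers was 0.994 for Tgfb1, 0.982 for Tgfbi, 0.952 for Skil, 0.949 for Tgfbr1, 0.917 for Tgfbr2, 0.896 for Tgfb3 and 0.886 for Smad7. For Tgfb2 it was −0.58. With the mean of 8 oligodendrocyte progenitor markers, r was 0.69 for Tgfb2. For the 7 genes it was negative, from −0.91 for Skil to −0.75 for Tgfbr2. These values describe 12 libraries that share 3 tumors and 4 sorts and carry no p. The leukocyte markers were on average highest in GAL1+ and lowest in GAL1- libraries, so a gene with that order correlates with them in any case. The r of all genes was not set beside these values. All 12 pan-leukocyte markers were called higher in GAL1+ than GAL1- cells, with a median of 4.49, and so were 9 of 9 microglia markers (4.52) and 9 of 9 macrophage and border-associated macrophage markers (5.95). Endothelial markers (9 of 9, median 2.61), mural and fibroblast markers (8 of 9, median 2.36) and neutrophil markers (3 of 5, median 1.52) were called higher too. T and NK cell markers did not rise as a list. Of 7, 1 was called higher and 5 had a negative difference (median −0.12), where 28.9% of all genes were called higher. Of the markers of neural lineages, 8 of 8 oligodendrocyte progenitor genes (median −2.76) and 4 of 7 astrocyte genes (median −1.35) were called lower. The part of these cell types in the TGF-beta results was not tested.

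**Figure D4:**
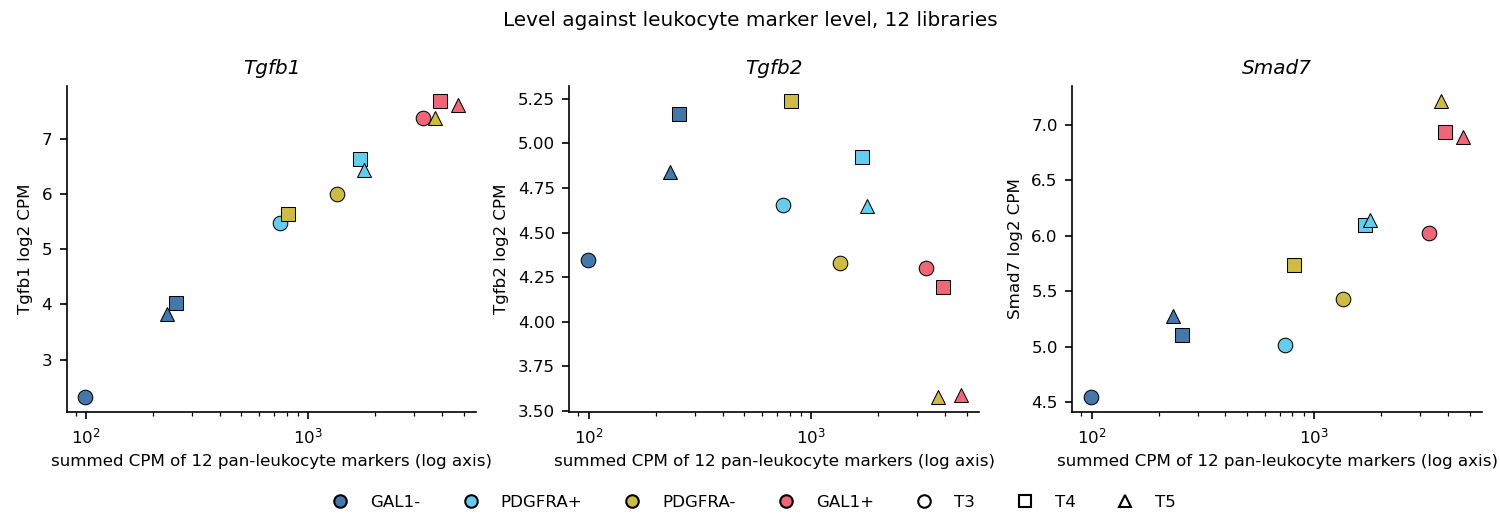
Level of Tgfb1, Tgfb2 and Smad7 (log2 CPM, y axes that differ in range) against the summed CPM of 12 pan-leukocyte markers (x axis, log scale) in 12 libraries, coloured by population and shaped by tumor. Tgfb1 follows the marker level closely across the 12 libraries (r = 0.994 with the mean marker level), Smad7 less closely (0.886), and Tgfb2 does not rise (−0.58).

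By likeness across the 12 libraries, among 13229 genes with a mean above 1 log2 CPM, Tgfb1 was closest to Cyth4 (r = 0.998), Tbxas1 (0.998) and Osm (0.997). Cyth4 and Tbxas1 are expressed mainly in blood cells, and Osm encodes the cytokine oncostatin M. Tgfbi was closest to St3gal1 (0.996), Cfb (0.994) and Trim30d (0.994), of which Cfb encodes complement factor B. Skil was closest to Rel, Tnfaip3 and Mbnl1 (each 0.991), and Rel and Tnfaip3 belong to NF-kB signaling. Tgfbr1 was closest to Irf2bp2, Pnpla7 and Slc29a3 (0.990 to 0.992), and Tgfbr2 to Pygb (0.991), Abcd2 (0.984) and Stard8 (0.980). Tgfb3 was closest to Prr13 (0.981), Vdr (0.980) and Jaml (0.979), and Smad7 to Cnnm4 (0.988), Otulin (0.986) and Plk3 (0.982). The nearest genes of Tgfb2 were Zbtb7c (0.960), Dync1h1 (0.958) and Tnks1bp1 (0.956).

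The other genes of the pathway did not all move with the 8. Of 45 listed genes, 43 had a row, and in GAL1+ against GAL1- cells 25 were called higher and 6 lower, with a median of 0.84, where 28.9% of all genes were called higher and 29.3% lower. Genes named here beyond the latency genes, the SMAD transducers and the largest changes were chosen after their values were seen.

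Genes of latency and activation were called in both directions, as genes of the whole table were. Nrros, which encodes the milieu protein that anchors latent TGF-beta1 on myeloid cells, was 4.31 higher in GAL1+ cells (SE 0.45, adjusted p = 6.32e-05). Lrrc32, its relative GARP, was 2.31 higher, Furin, the protease that cleaves the propeptide, was 2.28 higher, and Thbs1, the activator thrombospondin-1, was 3.83 higher, all called. The integrin chains that release TGF-beta went the other way, with Itgb8 at −1.88 (adjusted p = 0.001) and Itgav at −0.95 (adjusted p = 0.00288). Of the latent binding proteins, Ltbp4 was called lower (−1.42) and Ltbp2 higher (1.44), while Ltbp1 (−0.13) and Ltbp3 (−0.40) were not called. In all, 5 of the 10 genes were called higher (28.9% of all genes) and 3 lower (29.3% of all genes). Between PDGFRA+ and GAL1+ cells, Thbs1 (−1.86, adjusted p = 0.00472), Nrros (−1.54, adjusted p = 0.0235) and Furin (−1.17) were lower in PDGFRA+ cells, and Itgb8 (1.53, adjusted p = 0.00742), Ltbp4 (1.23) and Itgav (0.84) were higher. In that comparison Ltbp1 (0.28), Ltbp2 (−0.32), Ltbp3 (0.34) and Lrrc32 (−0.49) were not called.

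Of 5 co-receptors and receptor partners, Acvrl1 (4.52, SE 0.38, adjusted p = 3.93e-05) and Eng (2.95), which form an endothelial receptor complex, were called higher in GAL1+ cells. Zfyve9, which encodes the SMAD anchor SARA, was called lower (−1.32). The SMAD transducers moved little. Smad3 was 0.62 higher in GAL1+ than GAL1- cells (SE 0.13, adjusted p = 0.00271), while Smad2 (0.17) and Smad4 (−0.18) were not called. Between PDGFRA+ and GAL1+ cells Smad3 differed by −0.39 (adjusted p = 0.0425), Smad2 by −0.12 and Smad4 by 0.15, the last pair not called.

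Of 10 inhibitors and co-repressors, 8 were called higher in GAL1+ cells and 0 lower, with a median of 1.25, beside 28.9% and 29.3% of all genes. Smad6, an inhibitory SMAD, had the highest estimate (3.95) and was at 6.6 to 16.5 reads in the GAL1- libraries, near the floor of 3 reads. Of 15 target genes, 9 were called higher and 2 lower, beside the same shares of all genes. Fn1, which encodes fibronectin, was 4.48 higher (SE 0.36, adjusted p = 3.93e-05), and the lower genes were Zeb1 (−1.87) and Tsc22d1 (−1.24). Between PDGFRA+ and GAL1+ cells, 17 of the 43 pathway genes were called lower in PDGFRA+ and 6 higher, with a median of −0.39, where 17% of all genes were called lower and 20.9% higher. Without the block 8 were called in that comparison, and without T3 5 were. Between PDGFRA+ and PDGFRA- cells 0 of the 43 were called, and 9 had an unadjusted p under 0.05 in limma.

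**Figure D5:**
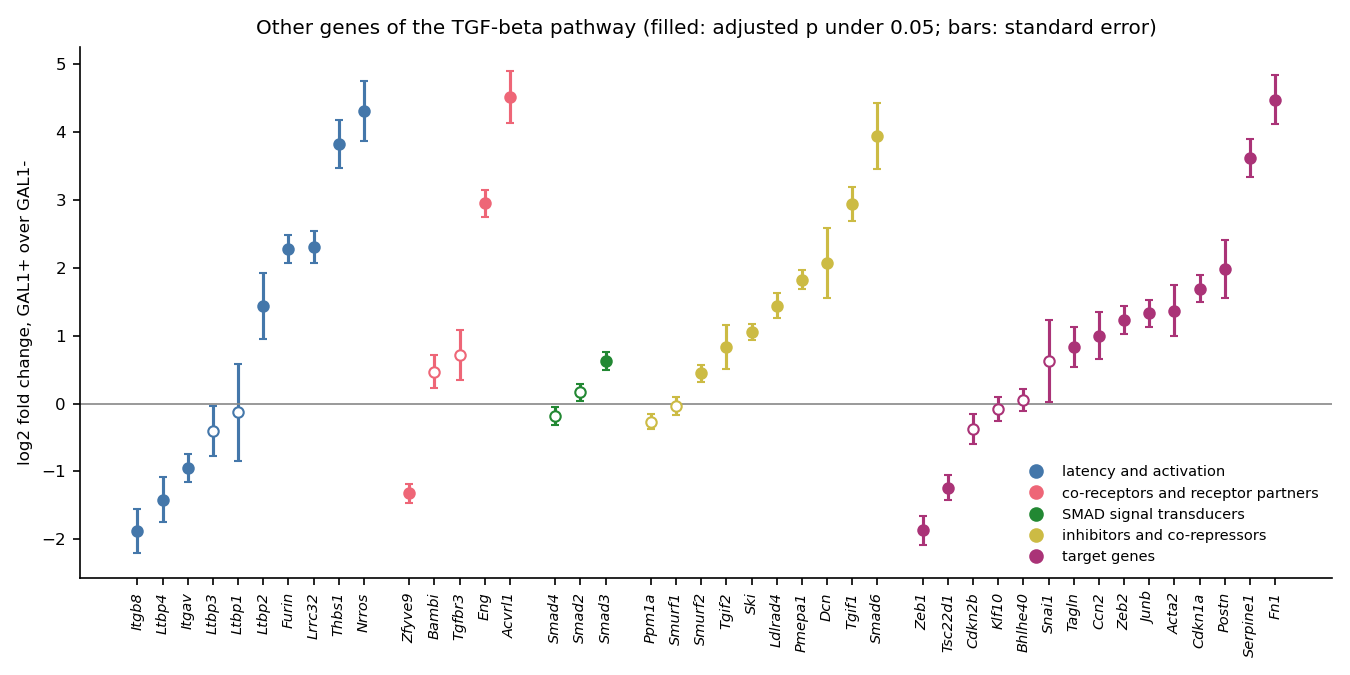
Log2 fold change of GAL1+ over GAL1- cells (y axis, limma estimate with its standard error) for the 43 other pathway genes (x axis), grouped and coloured by role and filled where called. Acvrl1, Fn1 and Nrros lie above 4, while Itgb8, Itgav, Ltbp4, Zfyve9, Zeb1 and Tsc22d1 are called below 0.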

How the data were processed

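Total RNA from 12 libraries of sorted cells was profiled by RNA sequencing (SMARTer Stranded Total RNA-seq v3 Pico kit, 1 ng). The genotype of the model is given in part, and the rest is not reported here. The authors used fastp for trimming, STAR (two-pass, mm39) for alignment and featureCounts for exon counts, in which multi-mapping reads entered as fractions. Genes passed if their CPM exceeded 1 in 3 or more libraries, and TMM and voom followed. The deposited table holds log2 CPM on that scale. To recover reads, the minimum of each library was set to 0 reads under an offset of 0.5; only 41.3% to 59.2% of values then came out whole within 0.01 reads, so a count test was not run. The floor of 3 reads covers counting error only.

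From those values, a model of population and tumor was fitted with limma 3.58.1 (R 4.3.3, trended prior) to 18180 genes, with Benjamini-Hochberg adjustment. The tumor numbers in the labels pair libraries. Deviations from the population mean correlated at a mean r of 0.486 over 18 same-tumor pairs (lowest 0.14). Other pairs were at −0.306, but taking out the population mean itself makes those values negative, so that value says nothing about the pairing. P-values set each difference against the spread across the 3 tumors that was left after population means and tumor shifts were removed. That spread was pooled over the 4 populations and moderated by the trended prior, so all pairwise comparisons of a gene shared the same SE. Levels per kb used union exon lengths from GENCODE M21 (GRCm38), which is not the build of the counts. Promoters came from RefSeq. The 8 genes, the pathway list and the marker lists were chosen with earlier results of these data known. By the rule for named genes, the text names the 8, their 3 most alike genes, the latency genes and SMAD transducers, and per comparison the 3 largest called pathway changes shared by all tumors; Eng, Zfyve9, Smad6, Zeb1 and Tsc22d1 were added after their values were seen. Alternatives left out the block, the trend or a tumor, used only the 2 groups compared, robust eBayes, a pseudocount of 1 CPM, a low-value filter, quantile normalization or median centring.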

Additional observations from a re-analysis of the deposited data

Results flagged for a closer look

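For each of the 8 genes the difference made by the GAL1 sort was set against the difference made by the PDGFRA sort of the same tumors, and limma's test of that difference between the sorts was passed by all 8, where 51.1% of all genes passed it. The GAL1 effect minus the PDGFRA effect, on the log2 scale, was 4.33 for Tgfb1, −1.11 for Tgfb2 and 3.43 for Tgfb3. For the receptors it was 2.81 for Tgfbr1 and 3.86 for Tgfbr2. For the targets it was 5.86 for Tgfbi, 2.02 for Smad7 and 2.23 for Skil. Tgfb2 was the only one of the 8 with a negative value, and its call (adjusted p = 0.0421) was lost in 5 of 11 alternatives, where the weakest value was −0.51 (adjusted p = 0.346, without T5). Effects of opposite sign in the 2 sorts add in this difference. Those of Tgfb2 were −0.76 (GAL1) and 0.36 (PDGFRA), both toward lower levels in the population with less Pdgfra. Its value therefore does not show that the sorts disagreed. The same test gave a positive difference for 12 of 12 pan-leukocyte markers (median 4.88) and a negative one for 8 of 8 oligodendrocyte progenitor markers (median −3.21), and their part in these values was not tested.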

How the results depend on the processing

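The differences of the GAL1 sort kept their direction under all 12 alternatives for the 8 genes, and 7 stayed called in each; Tgfb2 (−1.11 to −0.51) was called in 7 of 12, and missed the threshold without the replicate block (adjusted p = 0.119), with only the 2 groups compared (0.0597), without the trend (0.0618), without T4 and without T5. Without the replicate block, which pairs libraries by tumor, the number of the 8 genes called was 1 for PDGFRA+ against GAL1+, 2 for PDGFRA+ against GAL1-, 4 for PDGFRA- against GAL1- and 0 for PDGFRA- against GAL1+, and 8 pathway genes were called for PDGFRA+ against GAL1+. With only the 2 groups compared, 4 were called for PDGFRA- against GAL1-. Leaving out each tumor, or the PDGFRA- library of T5, gave 7 to 8 calls for the GAL1 sort and for the difference of the sorts, 1 to 8 for PDGFRA+ against GAL1+ (lowest without T3), 0 to 7 for PDGFRA+ against GAL1- (lowest without T3), 4 to 7 for PDGFRA- against GAL1- (lowest without T3 and without T5) and 0 to 7 for PDGFRA- against GAL1+ (lowest without T3 and without T4, highest without T5 or that library), and 5 to 24 pathway genes for PDGFRA+ against GAL1+ (lowest without T3). Signs turned only where the difference was not called. With tumors or that library left out, PDGFRA+ against PDGFRA- gave −0.74 to 0.24 for Tgfb1, −0.45 to 0.39 for Tgfbr1, −0.74 to 0.0079 for Smad7 and −0.55 to 0.13 for Skil, and Tgfb2 gave −0.22 to 0.057 in PDGFRA+ against GAL1- and −0.64 to 0.027 in PDGFRA- against GAL1-. Median centring turned Tgfbr1 in PDGFRA+ against PDGFRA- to −0.012. The causes were not tested. Quantile normalization or median centring moved the median of all genes by up to 0.16 (log2), from 0.01 to −0.15 for PDGFRA+ against GAL1+ under centring. The fewest reads behind a value of the 8 genes were 128 (Tgfb2, PDGFRA- of T5).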
